A study of Homo sapiens with 4 samples.

Results

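Primed enhancers are stretches of chromatin that carry H3K4me1 but not H3K27ac. H3K4me1, monomethylation of histone H3 at lysine 4, is laid down at enhancers mainly by the methyltransferases KMT2C and KMT2D. H3K27ac, acetylation at lysine 27, is added by the acetyltransferases EP300 and CREBBP and accompanies enhancers in use, and H3K4me3 marks active promoters. A distal site with H3K4me1 alone is therefore usually read as an enhancer that is marked but not in use, either before activation or after it.

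The sites described here came from untreated MHCC97L cells, a human hepatocellular carcinoma line, profiled by chromatin immunoprecipitation and sequencing with 1 library each for H3K4me1, H3K27ac and H3K4me3, besides an input library that was not analysed here. The labels give the genotype as WT, and the cells grew with 10% serum at 37 °C in 5% CO2. As a model this is 1 line with no replicate, so no difference below was tested, and intervals are 95% Wilson intervals for counting error only. Of 11 hepatocyte marker genes, 6 had H3K4me3 and H3K27ac summits in or within 1000 bp of the gene, whereas ALB, APOA2 and TTR had neither mark there. Of the 5 fetal liver and liver cancer markers, AFP and SOX9 had both marks and GPC3 and EPCAM neither. KRT8, KRT18 and CDH1, the 3 epithelial markers, had both, and the counts were 1 of 6 for stellate cell and fibroblast markers, 1 of 4 for endothelial, 2 of 4 for myeloid and 0 of 4 for lymphocyte markers. Fewer had both marks within 1000 bp of the same gene boundary: 4 of the 11 hepatocyte markers, SOX9 but not AFP, and KRT8 and KRT18 but not CDH1. Of the other markers only RGS5, a stellate cell and fibroblast one, and CD68, a myeloid one, did.

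Members were chosen by position from the authors' list of H3K4me1 summits, the single positions of highest signal in each called peak. A primed site is a summit on chromosomes 1 to 22 or X that lies over 2500 bp from every start or end of a RefSeq gene of any type on GRCh38, with no H3K27ac and no H3K4me3 summit within 1000 bp. The 3 lists held 202472 summits on these chromosomes. The rule was met by 29503 of 86366 H3K4me1 summits (34.2%, 33.8 to 34.5), and by 43.4% (43.01 to 43.8) of the 68009 that were distal. When H3K27ac and H3K4me3 summits counted only from a score of 10, the share of distal summits was 74.2%. The other distal H3K4me1 summits were 24212 with H3K27ac only, 4760 with H3K4me3 only and 9534 with both. The 24212 and the 9534 together are called acetylated H3K4me1 sites below. Absence of a mark here means that no summit was called, which does not show that the mark was absent, and the width of the H3K27ac peaks was not used here.

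Sites just inside and just outside each threshold had similar scores, where the score is the authors' −log10 of a p-value or q-value. Without H3K4me3 near, 1180 sites had their nearest H3K27ac summit 1001 to 1100 bp away and were kept, with a median score of 4.58, and 1173 at 901 to 1000 bp were not, with the same median of 4.58. The 437 kept sites with H3K4me3 at 1001 to 1100 bp had a median of 4.94, and the 406 at 901 to 1000 bp, not kept, had 5.09. At the gene boundary limit 264 sites at 2501 to 2600 bp were kept (median 4.50) and 294 at 2401 to 2500 bp were not (4.23).

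No genome of this build was used here, so the sequence of the sites themselves is not shown. The 250 bases before the annotated starts of 3 host genes are given instead, from the RefSeq promoter table of GRCh38.p14, since these genes held many primed sites while their starts differed in marks. FNDC3B led all hosts among genes with both promoter marks. MACF1 and CDH23 led the hosts on chromosomes other than 8 that had neither mark within 1000 bp of either end and whose outermost start the table holds. All are on the plus strand, written 5′ to 3′, and capitals mark the dinucleotide CG, which reads the same on both strands.
FNDC3B, chr3:172039328-172039577: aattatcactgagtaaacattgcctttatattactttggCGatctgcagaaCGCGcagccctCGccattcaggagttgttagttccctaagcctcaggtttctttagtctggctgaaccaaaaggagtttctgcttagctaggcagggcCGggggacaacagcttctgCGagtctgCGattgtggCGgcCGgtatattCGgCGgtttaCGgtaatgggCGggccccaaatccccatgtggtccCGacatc
MACF1, chr1:39083917-39084166: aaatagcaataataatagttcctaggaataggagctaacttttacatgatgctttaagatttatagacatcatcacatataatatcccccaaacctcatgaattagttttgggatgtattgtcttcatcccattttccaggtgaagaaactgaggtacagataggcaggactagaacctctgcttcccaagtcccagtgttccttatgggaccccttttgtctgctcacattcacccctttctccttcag
CDH23, chr10:71396670-71396919: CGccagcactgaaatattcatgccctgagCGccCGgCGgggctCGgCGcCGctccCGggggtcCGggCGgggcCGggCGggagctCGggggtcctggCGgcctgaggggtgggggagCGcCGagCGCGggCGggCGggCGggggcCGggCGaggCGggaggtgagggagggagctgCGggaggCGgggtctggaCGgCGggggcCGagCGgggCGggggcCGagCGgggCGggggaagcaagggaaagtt

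The FNDC3B window held 14 CG dinucleotides, and H3K4me3 and H3K27ac summits lay 134 and 347 bp from the start. The MACF1 window held 0, with the nearest H3K4me3 summit 2649 bp and the nearest H3K27ac summit 19129 bp away. The CDH23 window held 34, yet its nearest H3K4me3 and H3K27ac summits were 19632 and 13770 bp away. Over the 15811 protein-coding genes in the table the median was 17, and 96.9% held at least 1. FNDC3B hosted 65 primed sites, MACF1, which encodes a linker of actin and microtubules, hosted 24, and CDH23, a cadherin gene, hosted 19. The 3 starts thus ranged from no CG to a dense run of them.

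Primed sites scored lower than the other distal H3K4me1 summits. Their median score was 4.23, with quartiles of 3.01 and 5.71, and the highest was 64.3. The medians of the other classes were 4.94 with H3K27ac only, 5.12 with H3K4me3 only and 5.42 with both. Scores of 10 or more belonged to 1390 primed sites (4.71%, 4.48 to 4.96), against 9.06% (8.70 to 9.43) with H3K27ac only, 14.0% (13.1 to 15.03) with H3K4me3 only and 12.8% (12.2 to 13.5) with both. The scores moved in steps: the 29503 sites shared 1420 values, 2238 of them had the score 3.77, and the 10 most frequent values covered 44.97%.

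All distal H3K4me1 summits were ranked by score, with ties ordered by chromosome and position, and cut into 10 groups of equal size. Neighbouring groups therefore share the score at their limit. The primed share was lower in each group than in the one below it. It was 54.5% (53.3 to 55.7) in the lowest group and 25.6% (24.5 to 26.6) in the highest, which started at a score of 9.07. H3K27ac within 1000 bp was found at 39.7% of the lowest group and 62.9% of the highest, and H3K4me3 at 16.6% and 34.1%. A weak H3K4me1 summit was thus more often without the other marks than a strong one. Sequencing depth sets which weak summits of any mark can be called, it is unknown for these libraries, and its part in this relation was not tested.

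**Figure D1:**
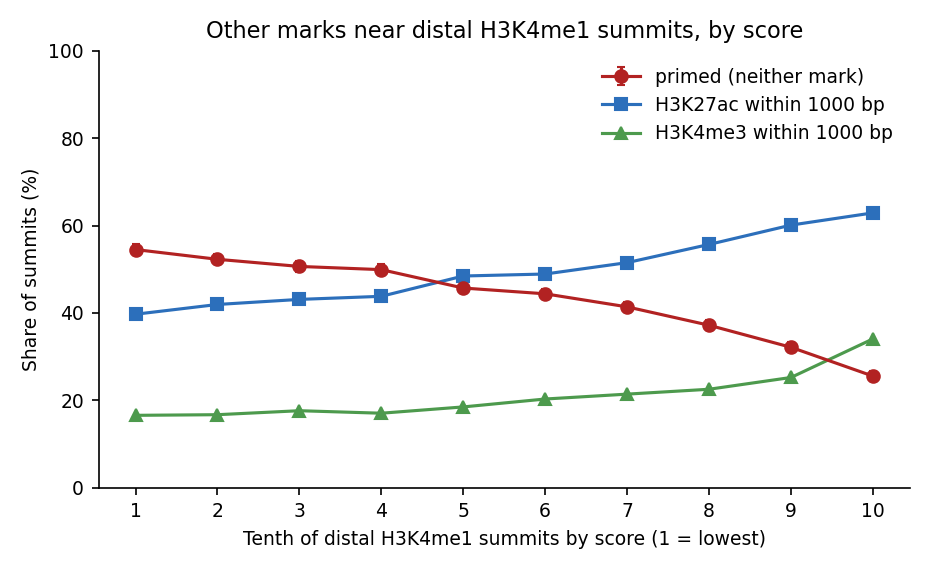
Share of distal H3K4me1 summits (y axis, %) that were primed, had H3K27ac or had H3K4me3 within 1000 bp, by H3K4me1 score (x axis, 10 groups of equal size, lowest to highest). Bars on the primed points are 95% Wilson intervals. The primed share was 54.5% in the lowest group and 25.6% in the highest.

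The highest scores among primed sites were in and beside MET, the gene of the hepatocyte growth factor receptor. The summit at chr7:116776246, inside MET, had a score of 64.3, the highest of the whole H3K4me1 list, and lay 1330 bp from an H3K4me3 and 3002 bp from an H3K27ac summit. A second one in MET, at chr7:116712371, had 57.9 and ranked second of the list, and one between MET and CAPZA2 at chr7:116806236 had 43.5 and ranked 4 in the list, below a summit that was not primed. The 3 sites had an H3K4me3 summit at 1330, 1446 and 2110 bp, so the strongest sites stood close beyond the limit of the rule.

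The stretch of 500 kb to each side of the first of these sites held 44 primed sites, with a median score of 6.10 against 4.23 over all primed sites. Of its 119 H3K4me1 summits of any class, 44 belonged to the top 1% of the H3K4me1 list, which began at 16.4. For H3K27ac, 7 of 89 summits did (from 99.9), and for H3K4me3, 4 of 71 (from 97.5). The medians of these other marks, 8.07 and 7.99 in the stretch against 8.40 and 8.23 in their whole lists, were not higher there. Their share in the top 1% was nevertheless above 1% in the stretch for both marks. Their highest scores there, 187.7 for H3K27ac and 163.6 for H3K4me3, were near the highest of the whole lists, 194.1 and 177.5.

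Among the 10 highest scores were 6 further sites on 6 other chromosomes. They were a site of 35.5 between ASPH and NKAIN3 and sites in SEPTIN9 (30.1), ITPR1 (29.96), SHB (28.9), LMNA (27.7) and PARN (27.3). LMNA encodes the nuclear lamins A and C, ITPR1 a calcium release channel, SHB a signalling adaptor and PARN a poly(A) nuclease. The nearest H3K27ac summit of these 6 lay between 1026 bp, at LMNA, and 9299 bp, at the site beside ASPH.

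Primed sites crowded around acetylated chromatin. The median distance to the nearest H3K27ac summit was 4841 bp, with quartiles of 1975 and 14742.5 bp, and that to the nearest H3K4me3 summit was 11303 bp. To account for how much sequence lies at each distance, sites were counted per Mb of eligible sequence, the 2462 Mb where a summit could have met the rule, which held 11.99 primed sites per Mb. Between 1000 and 1500 bp from an H3K27ac summit there were 221 per Mb, between 2500 and 5000 bp 52.4, between 10 and 25 kb 15.1 and beyond 100 kb 0.509. The sites within 2500 bp made up 15.8% (up to 1500 bp) and 16.2% (1500 to 2500 bp) of all primed sites but 0.859% and 1.65% of the eligible sequence. Many primed sites thus lay beside acetylated chromatin. Stretches where no summit can be called count as eligible, which can lower the values at long distance.

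**Figure D2:**
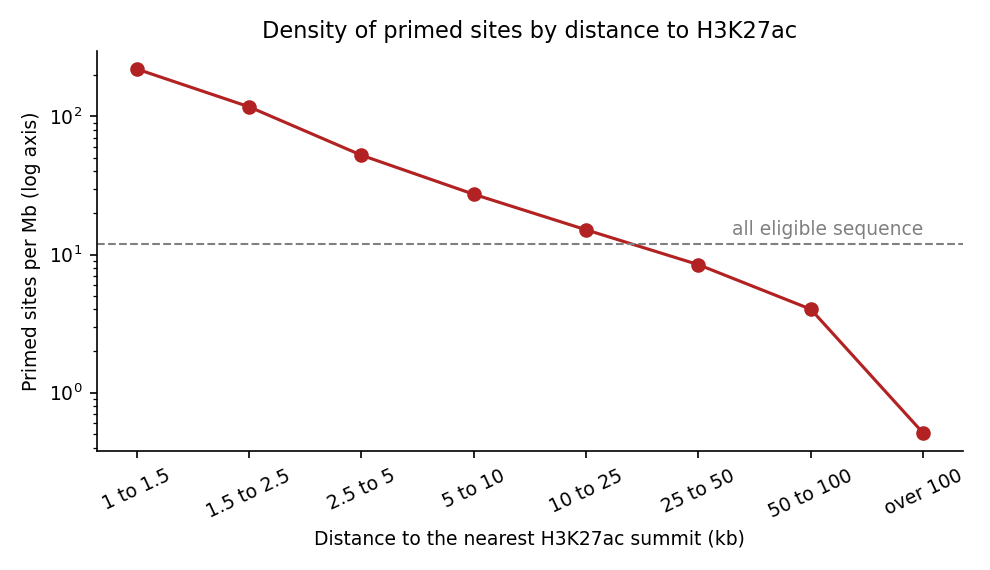
Primed sites per Mb of eligible sequence (y axis, log scale) by distance to the nearest H3K27ac summit (x axis, kb). The dashed line is the value over all eligible sequence, 11.99 per Mb, and the points run from 221 per Mb at 1 to 1.5 kb to 0.509 per Mb beyond 100 kb.

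The score also differed along this distance. The median was 4.58 in the bins up to 2500 bp and 3.77 in each bin beyond 10 kb, and the share with a score of at least 10 was 8.76% between 1000 and 1500 bp and 0.525% beyond 100 kb. Sites over 50 kb from any H3K27ac summit numbered 1920 (6.51% of all), with a highest score of 17.9. Of them 65.2% (63.05 to 67.3) lay in protein-coding genes, close to the share of all primed sites. Beyond 100 kb there were 571 sites, and the genes holding most of them, named after the counts were seen, were ENOX2 with 10, RANBP2 and SH3RF3 with 9 each, and PTPRG and PTPRK with 6 each. ENOX2, SH3RF3 and PTPRG held no acetylated site. The count of RANBP2 is uncertain: the RefSeq table gives this gene an interval of 1123 kb, over which its sites were counted, and it has near-identical copies in the genome.

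Most primed sites had another H3K4me1 summit close by. The median distance to the next H3K4me1 summit of any class was 1077 bp, against 826 bp for acetylated sites, and to the next primed site it was 1827 bp. Another H3K4me1 summit lay within 1000 bp of 46.9% (46.3 to 47.5) of primed and 60.7% (60.2 to 61.3) of acetylated sites, and within 2500 bp of 70.4% (69.9 to 70.9) and 86.6% (86.2 to 86.97). Each summit was a peak of its own in the deposited list, and the shortest distance from a primed site was 170 bp. In both classes the most frequent distance was between 500 and 750 bp. The distance to the nearest gene boundary had a median of 12976 bp for primed and 12676 bp for acetylated sites, so the classes lay about equally far from gene ends.

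**Figure D3:**
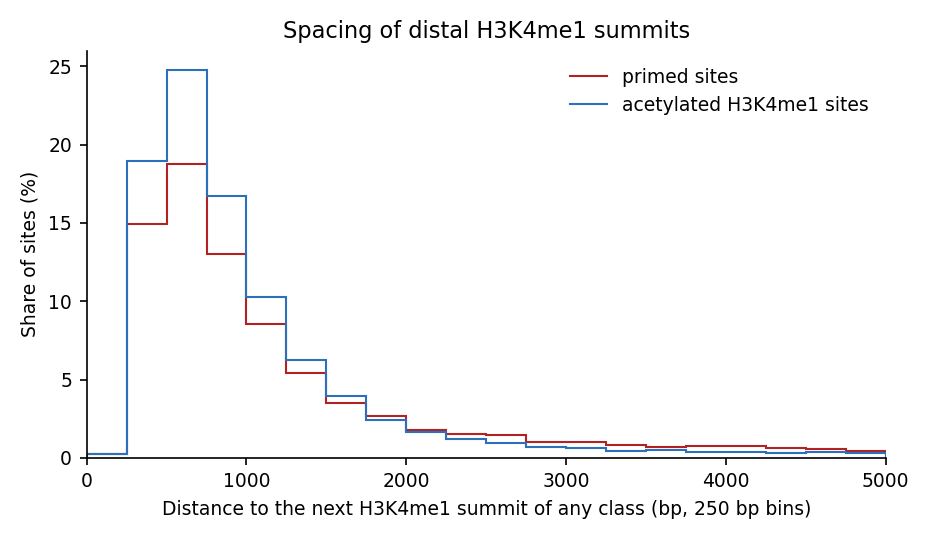
Share of primed and of acetylated H3K4me1 sites (y axis, %) by distance to the next H3K4me1 summit of any class (x axis, bp, bins of 250 bp, up to 5000 bp). Both curves peak between 500 and 750 bp, and 46.9% of primed against 60.7% of acetylated sites had a neighbour within 1000 bp.

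H3K4me1 summits of any class less than 2500 bp apart were joined into domains. In mixed domains, which also held H3K4me1 summits that were not primed, lay 12187 primed sites (41.3%, 40.7 to 41.9), with a median score of 4.58 and a median distance of 1887 bp to H3K27ac. Alone in their domain were 8731 sites (29.6%, 29.1 to 30.1), with a median score of 3.77 and a median distance of 11342 bp. Domains of 2 or 3 summits, all primed, held 6889 sites, and 371 domains of 4 or more summits, all primed, held 1696 (5.75%, 5.49 to 6.02). In these larger domains the median score was 4.58, as in the mixed ones, although H3K27ac was at a median of 10122.5 bp, and 75.3% of the sites lay in protein-coding genes.

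The largest such domains held 10 sites each. One covered 8349 bp of HPCAL1, which encodes a calcium-binding protein of the neuronal calcium sensor family, at chr2:10362226-10370574. Its sites stood between 392 and 1359 bp apart and scored 3.01, 7.19, 1.62, 3.77, 6.30, 8.11, 4.94, 7.19, 4.58 and 4.58 in order along the chromosome, and the nearest H3K27ac summit was 15594 bp away. No site of this domain reached a score of 10. The highest was the 8.11 at its middle, against an upper quartile of 5.71 over all primed sites. Another, of 9007 bp, lay in FNIP2, a folliculin partner gene, at chr4:158817641-158826647, with scores of 3.77 to 8.37 and H3K27ac 34420 bp away. The third, of 8116 bp, lay between AREG and BTC, both genes of epidermal growth factor receptor ligands, at chr4:74620686-74628801, with H3K27ac 2511 bp away. A domain of 9 sites in ANKRD11 and one of 8 in PRKCB, where H3K27ac was 72118 bp away, followed.

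With a wider limit, joining primed sites less than 12000 bp apart, there were 14119 clusters. Of these 7663 were single sites, and 171 clusters of 10 or more held 7.61% of all primed sites. The largest had 34 sites over 68.5 kb of HPCAL1, which in the same span had 8 H3K27ac and 2 H3K4me3 summits. The next had 30 sites over 84.5 kb at PLEKHA6, 29 over 105 kb of TCF7L2, 27 over 78.4 kb of ZMIZ1 and 24 over 85.6 kb of FNDC3B. All of them held H3K27ac summits between the primed sites, from 8 in TCF7L2 and HPCAL1 to 19 in FNDC3B.

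Primed sites lay inside genes more than acetylated sites did. Protein-coding genes held 19127 of the primed sites (64.8%, 64.3 to 65.4), against 58.7% (58.1 to 59.2) of the acetylated H3K4me1 sites and 42.2% of the eligible sequence. A high share inside genes was not particular to primed sites. Distal H3K4me1 summits with H3K4me3 only lay in protein-coding genes in 73.4% of cases and outside all genes in 19.3%. Genes of long noncoding RNA (lncRNA) alone held 8.23% (7.92 to 8.55) of primed and 10.2% (9.84 to 10.5) of acetylated sites, and sequence outside all genes 26.2% (25.7 to 26.7) and 30.2% (29.7 to 30.7). Per Mb of distal sequence, protein-coding genes held nearly equal numbers, 17.6 primed and 18.2 acetylated, while outside all genes there were 6.75 primed and 8.92 acetylated. Genes of lncRNA alone held 8.37 primed and 11.8 acetylated sites per Mb, and other genes 8.84 and 12.9, so primed sites were fewer than acetylated ones in each kind of location and most nearly equal in protein-coding genes. Few primed sites, 206 of 27972 (0.736%, 0.643 to 0.844) on the chromosomes other than 8, lay within 1000 bp of another annotated start. Such a start could be inside a gene or outside it, and the share of acetylated sites was 1.10% (0.990 to 1.22). The rule removed sites with H3K4me3, the mark of active promoters, within 1000 bp from the primed class but not from the acetylated one. The rule itself can therefore lower the primed share near starts, and a difference apart from it was not tested.

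Of 16470 protein-coding genes that had any distal sequence, 4891 hosted a primed site (29.7%), and 1250 hosted at least 5 (7.59%). A single site was hosted by 1762 genes, 2 to 4 by 1879, 5 to 9 by 786 and 10 or more by 464. Hosts were long, with a median distal length of 60.9 kb against 17.2 kb for the other genes with distal sequence. Of the hosts 2921 also held an acetylated site, and 1970 (40.3%) held none, while 1088 genes held acetylated sites only. Genes with both kinds of site were the longest, with a median distal length of 81.4 kb. It was 38.7 kb for genes with primed sites only and 27.9 kb for those with acetylated sites only. The other 10491 genes held neither kind, at a median of 16.2 kb. How far the sharing of genes follows their length was not tested.

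The 20 genes with most primed sites were 125 to 863 kb long and held 846 sites together. FNDC3B, a fibronectin type III domain gene, had most, with 65 primed and 51 acetylated sites. PRKCA, the gene of protein kinase C alpha, had 62 and 71, and RAD51B, a recombination repair gene, had 57 and 78. LPP, which encodes a focal adhesion protein, had 49 and 77, and AOPEP, an aminopeptidase gene that overlaps FANCC over some of these sites, had 45 and 74. In this group the primed share of distal H3K4me1 summits ran from 34.1% in AOPEP to 69.4% in HPCAL1, with a median of 51.6%. Ranking genes by primed sites itself favours high primed shares.

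Several of the 20 encode receptors, channels and signalling proteins. IGF1R, an insulin-like growth factor receptor gene, held 42 primed and 40 acetylated sites, and CHN2, a GTPase-activating protein gene that overlaps CPVL, held 42 and 32. GNAQ, a G protein alpha subunit gene, held 40 and 19, and KCNQ3, a potassium channel gene, held 34 and 17. ARHGAP26, another GTPase-activating protein gene, held 35 and 15. In the last 3 of these genes, primed sites were at least 2 times as many as acetylated ones.

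Genes of adhesion, polarity and the cytoskeleton formed another part of the 20. TNS3, a tensin gene, held 40 primed and 30 acetylated sites, PARD3, a polarity gene, 40 and 47, and DST, a cytoskeletal linker gene, 37 and 31. Transcription regulators included TCF7L2, the transcription factor gene of Wnt signalling (40 and 38), ZMIZ1, a coregulator gene (39 each), ANKRD11, a chromatin regulator gene that overlaps LOC128462377 (36 and 20), and GSE1 (34 and 15). ABTB2 held 35 and 25 and HPCAL1 34 and 14. Of the 20 genes, 15 had H3K4me3 and H3K27ac within 1000 bp of the same boundary, 4 had 1 mark or the marks apart, and KCNQ3 had neither. Over all 16470 genes with distal sequence, 8330 had both at the same boundary. Among genes with over 200 kb of distal length 453 did, beside 251 with 1 mark or the marks apart and 519 with neither.

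**Figure D4:**
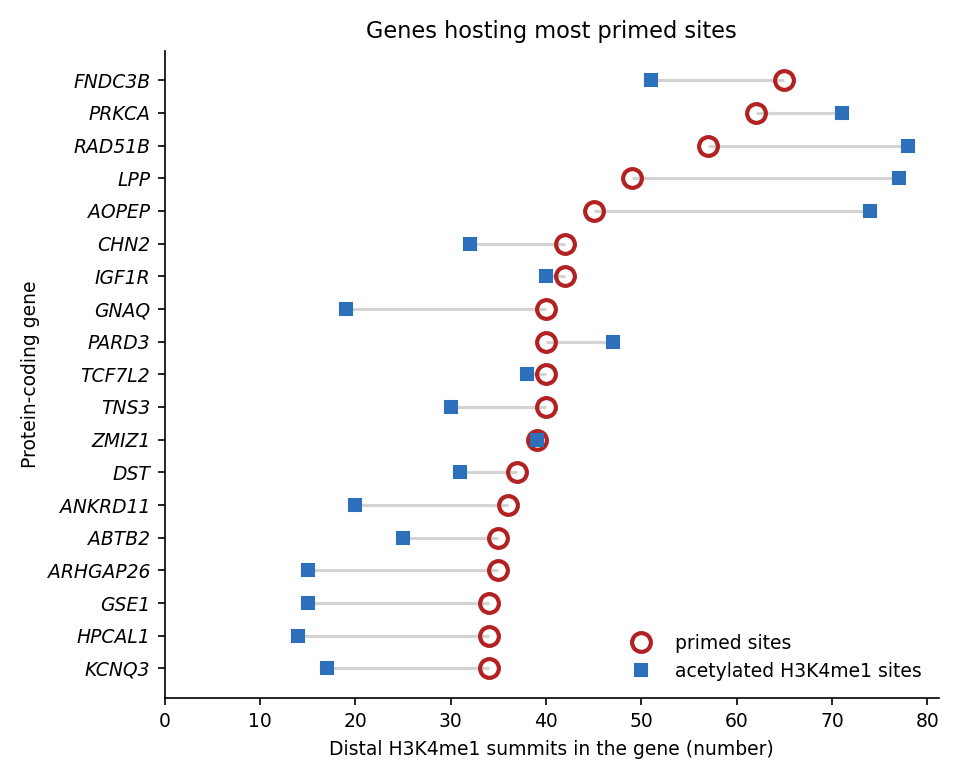
Number (x axis) of primed sites (open circles) and of acetylated H3K4me1 sites (squares) in all but 1 of the 20 protein-coding genes with most primed sites (y axis, genes in order). FNDC3B had 65 and 51, and acetylated sites outnumbered primed ones in PRKCA, RAD51B, LPP, AOPEP and PARD3.

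Ranking by sites per 100 kb of distal length, among genes with at least 5 primed sites, brought up short genes. DNAJA1, a cochaperone gene, had 6 sites in 9.63 kb (62.3 per 100 kb), CCT5, a chaperonin subunit gene, 7 in 11.5 kb (60.9), and FASN, the fatty acid synthase gene, 5 in 9.72 kb (51.5). None of these 3 genes held an acetylated or an H3K4me3-only distal site. CEP20 (47.0), PPP6R1 (46.4), SEMA7A (45.6), ACOX2, a peroxisomal oxidase gene (45.3), CA4, a carbonic anhydrase gene (43.7), PGD, a pentose phosphate enzyme gene (42.6), and SMAD7, an inhibitor of TGF-beta signalling (42.1), followed. SMAD7 held 11 primed sites beside 4 acetylated ones. Each of the 10 genes had at least 3 times as many primed as acetylated sites, except PPP6R1, PGD and SMAD7. They were chosen by their primed sites alone, so the ranking itself favours more primed than acetylated sites.

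Genes with at least 20 distal H3K4me1 summits of any class numbered 505, and their median primed share was 41.9%, with 10% of them at or under 25% and 10% at or over 62.8%. The ends of this range were named after the shares were seen. CCDC85C held 21 primed sites, 0 acetylated and 2 with H3K4me3 only. PRKCB, a protein kinase C gene, held 25 primed and 4 acetylated, KYNU, a kynureninase gene, and MCU, the gene of the mitochondrial calcium uniporter, 22 and 5 each, and SLC45A4 16 and 1. At the other end ALDH1A1, a retinaldehyde dehydrogenase gene, held 1 primed and 22 acetylated sites, PRTFDC1 3 and 27, GNG7 2 and 18, RAC1, a small GTPase gene, 2 and 16, and CLIP1 2 and 13. Single genes therefore ran from nearly all primed to nearly all acetylated.

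Of the 1250 genes hosting at least 5 primed sites, 126 held no acetylated site, a smaller share than the 1970 of 4891 (40.3%) among all hosts. The largest numbers after CCDC85C, again named after they were seen, were 17 in LAMC1, a laminin gene, 12 in CREBBP, and 10 each in CAV1, the caveolin gene, ENOX2 and EZR, the ezrin gene. CREBBP and EZR also held 4 and 11 summits with H3K4me3 only.

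Genes with H3K4me3 and H3K27ac at the same boundary hosted primed sites more often than genes with neither mark at a boundary, at every length. A boundary here was the start or the end of the gene, so the marks were not always at its promoter. Boundary marks were not used to choose the sites, which all lie over 2500 bp from any boundary. Among genes with H3K4me3 and H3K27ac at the same boundary 2905 of 8330 were hosts (34.9%, 33.9 to 35.9), against 959 of 5434 (17.6%, 16.7 to 18.7) with neither mark at a boundary. Among genes with 20 to 50 kb of distal length the shares were 35.4% (33.4 to 37.4) with both marks and 20.9% (18.6 to 23.4) with neither, and over 200 kb they were 76.8% (72.7 to 80.5) and 36.6% (32.6 to 40.8). Genes with 1 mark, or with the marks at different boundaries, hosted at 38.0% (36.1 to 39.8). The eligible sequence of genes with both marks held 26.4 primed sites per Mb, against 7.39 in genes with neither. Acetylated sites split in the same way, with 25.5 per Mb of distal sequence in genes with both marks and 8.03 in genes with neither. The median score of primed sites was 4.42 and 4.16 in these 2 groups of genes.

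**Figure D5:**
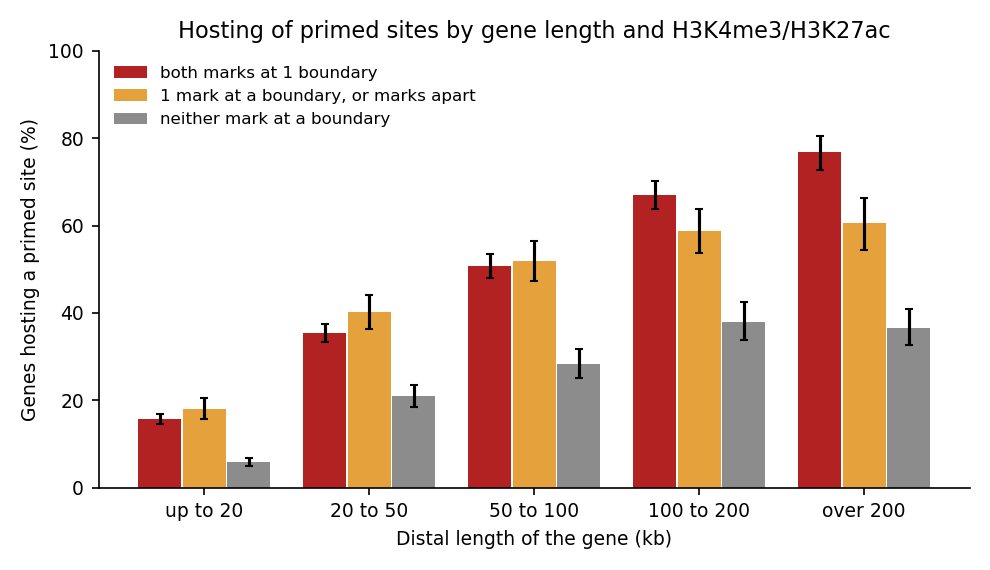
Share of protein-coding genes hosting a primed site (y axis, %) by distal length of the gene (x axis, kb) and by H3K4me3 and H3K27ac at the gene boundaries, with 95% Wilson intervals. In the longest class the share was 76.8% with both marks at 1 boundary and 36.6% with neither.

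Pooled over genes, the density was highest near the gene start. Strand was known for 13239 of the 16470 genes with distal sequence (80.4%), since the promoter table lacks the others. In genes with both marks at the upstream end, eligible sequence 2.5 to 5 kb into the gene held 54.5 primed sites per Mb, that at 5 to 10 kb 34.6, that at 20 to 50 kb 28.1 and that beyond 200 kb 14.5. In genes with neither mark there the values were 14.8, 14.5, 12.1 and 3.64. Per Mb of distal sequence 2.5 to 5 kb into the marked genes there were 41.7 primed and 39.5 acetylated sites. The bins do not hold the same genes: 7411 marked genes reached the first and 452 the last, and genes with both marks at 1 boundary and over 200 kb of distal length held 19.7 primed sites per Mb of distal sequence in all, against 31.0 in those with up to 20 kb. How far the lower density far from the start reflects this change of genes was not tested.

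The starts of hosts also had more CG dinucleotides in the 250 bases before them. On chromosomes other than 8 the promoter table held 3971 of 4695 hosts and 9267 of 11195 other genes with distal sequence. The median was 21 in hosts (quartiles 11 and 29) and 17 in the other genes (7 and 25). Hosts had the higher median in each of 5 length classes, from 20 against 15.5 for distal lengths up to 20 kb to 21 against 17 over 200 kb. More hosts also had H3K4me3 and H3K27ac at the same boundary, start or end, 60.7% against 49.0%. Whether the CG count differs apart from these marks was not tested.

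Gene lists were read against the 29.7% of genes with distal sequence that host a primed site and against 17.6 primed and 18.2 acetylated sites per Mb of their distal sequence. The lists were chosen with earlier results of these data known, so their shares and densities are descriptions only. Of 31 genes of mature hepatocyte function 8 hosted a site (25.8%, 13.7 to 43.2), 10 sites in all, a share of hosts near the background but at densities below it (11.97 primed and 13.2 acetylated sites per Mb). FGB, a fibrinogen gene, and TF, the transferrin gene, held 2 each and SERPINA1, the antitrypsin gene, 1, while ALB held none and APOA1 has no distal sequence. Of 16 liver transcription factor genes 11 were hosts (68.8%, 44.4 to 85.8), with 70.7 primed and 76.7 acetylated sites per Mb. RXRA, a nuclear receptor gene, held 30 of their 59 primed sites and HNF4A 8, whereas FOXA1 held none and FOXA2 has no distal sequence.

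Genes of adhesion and the cytoskeleton were hosts in 28 of 28 cases, with 368 primed and 430 acetylated sites, or 37.1 and 43.3 per Mb. Because this list was chosen with earlier results of these data known, that share cannot be read as a test. Their median distal length of 205 kb compares with 25.6 kb over all genes, and LPP, TNS3 and PARD3 led. Of the Wnt pathway and target genes 13 of 21 were hosts, with 145 primed sites, or 88.4 per Mb. TCF7L2 held 40 of them, ZNRF3 18 and LGR4 16, both genes of Wnt signal control, and APC and LEF1 held none. YAP and TEAD genes were hosts in 13 of 19 cases (67.3 per Mb), with 28 sites in TEAD1, 20 in WWTR1 and 20 in CRIM1, and CCN1 and CCN2 have no distal sequence. TGF-beta pathway genes were hosts in 12 of 20 cases (51.4 per Mb), with 17 sites in SMAD3, 12 in BMPR1B and 12 in SKI, and none in TGFB1 or TGFB3. These signalling lists had acetylated sites at like densities, 109, 77.4 and 54.6 per Mb.

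Of the receptor tyrosine kinase genes and their ligands 15 of 22 were hosts, with 109 primed sites (28.7 per Mb). IGF1R held 42, EGFR, the epidermal growth factor receptor gene, 18, and MET 8, while ERBB4 and FGFR2 held none. Fetal liver and progenitor genes were hosts in 8 of 18 cases (44.4%, 24.6 to 66.3), with 11 sites in IGF2BP3, 10 in CD44 beside 1 acetylated site, and 7 in ANPEP with no acetylated one, and none in AFP or EPCAM. Liver cancer driver genes were hosts in 14 of 24 cases, with 11 sites in ARID1A, 8 in MET and 6 in ARID1B, and none in RB1. RB1 lies on chromosome 13, where only 98 H3K4me1 summits were called in all, 40 of them primed, so its lack of sites is not particular to the gene. The last 2 lists held 36.2 and 25.97 primed sites per Mb, and 28.2 and 37.5 acetylated ones.

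Genes of the enzymes that write, read or remove these marks were hosts in part. Of the H3K27 acetylation genes 8 of 16 were hosts, with 80.7 primed and 58.9 acetylated sites per Mb. CREBBP held 12 primed sites beside 0 acetylated ones. EP300, the partner of CREBBP, held none, and neither did KAT2A. Of the H3K4 methylation genes 5 of 18 were hosts, at 19.1 per Mb. KDM6A, whose product works with KMT2C and KMT2D and removes H3K27 methylation, held 15, KMT2C 6 and KMT2D 1, the last 2 with no acetylated site, and KMT2A and KMT2B held none.

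In the proliferation, housekeeping and AP-1 lists the primed and acetylated densities were also apart. Proliferation genes held 13 primed and 6 acetylated sites (29.7 and 13.7 per Mb), of which RRM2, a ribonucleotide reductase gene, had 6 primed and 0 acetylated, MCM5 3 and 4 and MCM2 1 and 0, while MKI67 and TOP2A had no primed site. Core housekeeping genes held 10 and 3 (45.7 and 13.7 per Mb), all primed ones in YWHAZ (4), SDHA (3) and PGK1 (3), and ACTB and GAPDH have no distal sequence. YWHAZ and PGK1 also held 10 and 3 distal H3K4me1 summits with H3K4me3 only, and SDHA held 0. AP-1 transcription factor genes were the reverse, with 6 primed and 18 acetylated sites (10.5 and 31.5 per Mb), among them 1 and 13 in FOSL2, 2 and 0 in ATF3 and 1 and 1 in FOSL1, and JUN and JUNB have no distal sequence. These counts are small and rest on few genes.

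Genes of other cell types held fewer primed sites per Mb than all genes, but not in every case fewer acetylated ones. None of 8 lymphocyte marker genes and 1 of 9 myeloid ones, PTPRC with 1 site, was a host. The myeloid list held 1 primed and 8 acetylated sites (3.14 and 25.1 per Mb). Neuron and synapse genes held 1.14 primed and 0.710 acetylated sites per Mb in 16 genes with a median distal length of 654 kb, with 13 sites in RBFOX3, 1 each in SYP and MAP2 and none in TUBB3 or RBFOX1. Stellate cell and fibroblast markers were hosts in 3 of 12 cases (12.1 primed and 14.8 acetylated sites per Mb), with 5 sites in PDGFRB, 3 in COL5A2 and 1 in RGS5, and none in COL1A1 or COL1A2. Endothelial markers were hosts in 4 of 11 cases (16.4 primed and 22.2 acetylated sites per Mb), with 8 sites in VWF, 6 in PECAM1 and 2 in STAB2, and none in CDH5 or KDR. Heart and skeletal muscle genes were hosts in 6 of 13 cases (12.5 primed and 12.0 acetylated sites per Mb), with 14 sites in CACNA1C, which overlaps DCP1B, 5 in NEB and 4 in RYR2, and none in MYH6 or MYH7. All 6 of these lists were below the 17.6 per Mb of all genes, as the hepatocyte function list was with 11.97. The myeloid and endothelial lists were above the 18.2 acetylated sites per Mb of all genes. Likewise, the share of hosts was above 29.7% for endothelial (36.4%, 15.2 to 64.6) and muscle genes (46.2%, 23.2 to 70.9).

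Outside protein-coding genes there were 10376 primed sites, with a median distance of 33012 bp to the nearest boundary of such a gene, and 22.6% of them lay over 100 kb away. The interval with most was chr8:127742952-129705434, between MYC and GSDMC, with 66 primed and 109 acetylated sites, 45 of the 66 in lncRNA genes. Between DIPK2B and KRABD4 on chromosome X there were 49 and 50. The interval from SOX9 to SLC39A11 on chromosome 17 was the densest of the 5 with most sites, with 45 primed in 520 kb (8.66 per 100 kb) and 75 acetylated. Those from KLF4 to ACTL7B on chromosome 9 and from IRF2BP2 to TOMM20 on chromosome 1 had 43 and 49, and 40 and 65. The median score of the sites from IRF2BP2 to TOMM20 was 6.43, against 4.23 over all primed sites. In these 5 intervals acetylated sites were the more numerous.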

How the data were processed

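Each mark was measured in 1 library, so the groups are the 3 antibodies, and no replicate numbers pair them. The submitters' processing notes name MACS2, Bowtie, deepTools and Picard, with hg38 as the build. Their versions and settings, and any use of the input, were not given in the sources used here. Peak summits were deposited by the authors as 1 list per mark, each summit 1 bp wide with a score that is the −log10 of a p-value or q-value, with a lowest value of 1.30 (H3K27ac), 1.33 (H3K4me1) and 1.31 (H3K4me3). Read depth is unknown. Summits on chromosome Y and contigs were left out (61 for H3K4me1).

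Distances, classes and counts were computed with Python 3.11.15, NumPy 2.4.6, pandas 2.3.3 and SciPy 1.17.1, on code checked against planted positions, with RefSeq genes of GRCh38.p14, which shares its chromosome coordinates with hg38. Eligible sequence ran between the first and last summit of each chromosome. A site in several genes counted for each. The members, the 20 gene lists and the rule for named genes were chosen with earlier results of these data known. That rule took the 20 genes with most sites, 10 by density, the 10 highest scores, 3 leading and 2 empty genes per list, 5 clusters and 5 intervals. Alternatives varied the distances, scores and joining of sites. All 386 list entries matched a gene. Some genes that the rule names are not reported here.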

Additional observations from a re-analysis of the deposited data

How the results depend on the processing

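No paired analysis was possible because each mark has 1 library, and no replicate could be left out. Scores limited the numbers most: with H3K4me1 scores of at least 5 there were 10402 primed sites (34.99% of distal H3K4me1 summits) in 2775 host genes, with a median score of 6.43, 66.0% in protein-coding genes and a median of 7757 bp to the next primed site, and with scores of at least 10 there were 1390 (25.4%) in 617 hosts, with 11.8, 65.5% and 51074 bp. With scores of at least 3 the median score was 4.58 and the distance 2798 bp. Counting H3K27ac and H3K4me3 only from a score of 10 left 50461 primed sites (74.2%), a median score of 4.58 and 1086 bp, and from a score of 5 there were 38596 (56.8%), with a median score of 4.43 and 1324 bp. With a co-location window of 500 bp the number was 41091 (60.4% of distal summits), the share in protein-coding genes 63.6%, the median score 4.53 and the distance 1578 bp, and with 2000 bp the number was 20634 (30.3%), with 65.6% and 4.07. The share in protein-coding genes was 63.4% with distal taken as over 1000 bp and 66.7% with over 5000 bp. Avoiding boundaries of protein-coding genes only gave 62.5% and 1709 bp. Counting sites less than 1000 bp apart as 1 gave 23158 regions, 64.0% in protein-coding genes, a median score of 4.58 and 8115.5 bp. Joining within 5000 or 25000 bp gave 17616 or 10621 clusters. The share in protein-coding genes thus ran from 62.5% to 66.7% over all alternatives, and the number of sites from 1390 to 50461.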

Other observations

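Chromosomes differed in their number of primed sites more than in the primed share of distal H3K4me1 summits. Chromosome 17 held 30.3 primed sites per Mb of eligible sequence, chromosome 20 held 22.6 and chromosome 22 held 22.2, against 4.74 on X, 5.43 on chromosome 4 and 0.475 on chromosome 13. The primed share ran from 39.8% on chromosome 19 to 49.4% (38.8 to 60.05) on chromosome 13, which had 81 distal H3K4me1 summits. Chromosome 13 had 98 H3K4me1 summits in all beside 920 H3K27ac and 596 H3K4me3 summits, and 40 of the 98 were primed, with a median score of 3.01.

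Of the primed sites outside protein-coding genes, 2428 lay in 1045 lncRNA genes. The genes with most, named after the counts were seen, were LINC00673 on chromosome 17 with 33 primed and 55 acetylated sites, PVT1 on chromosome 8 with 27 and 37, LINC00607 with 24 and 26, EPCAM-DT with 18 and 13, LINC-PINT with 17 and 27 and NCAL1 with 17 and 22. EPCAM-DT was the one of these 6 with more primed than acetylated sites, while EPCAM itself held neither.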
